A study of Homo sapiens with 6 samples.

Results

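Purine-skewed peaks were PAI-1 ChIP-seq peaks lying in DNA in which A and G were unevenly divided between the strands. A peak was included when the 300 bp window around its midpoint held 65% or more, or 35% or less, A plus G on the plus strand of GRCh37, and identical intervals of a library were counted once. The rule used the reference sequence and not the peak scores. It selected 4778 of 96423 peaks in RT112 replicate 1, 3676 of 60227 in RT112 replicate 2, 4906 of 109287 in UM-UC-3 replicate 1 and 5137 of 114094 in UM-UC-3 replicate 2. The purine-rich strand was the plus strand for 49.7, 48.5, 49.9 and 50.5% of them, so the orientations were about equally frequent.

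RT112 and UM-UC-3 are established human bladder cancer cell lines, each given by 2 ChIP libraries, called biological replicates, and 1 input. The labels name no treatment. Chromatin was precipitated with an antibody against PAI-1, and the 2 input libraries were not analysed here. The deposited data are peak lists without read counts, so the depth behind a peak is unknown, no counting intervals were computed, and the identity of the cell lines could not be checked against marker genes. Each peak carries a score, a −log10 p or q from the peak caller (which of the pair is not given in the sources used here), and scores were compared only within a library.

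PAI-1 is best known as a secreted serpin that blocks the plasminogen activators tPA and uPA. DNA with purines on a single strand is common in vertebrate genomes as simple repeats of A and G. Long mirror-symmetric tracts of this kind can fold into triple-stranded H-DNA in the test tube, and GGAA repeats are binding sites of the EWSR1-FLI1 fusion protein in Ewing sarcoma.

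The first set of sequences comes from 2 of the best-ranked purine-skewed peaks of RT112, and shows purine sequence interrupted by pyrimidines, often by a C. Peaks are called by their nearest protein-coding gene. Each line is 150 bases of the GRCh37 reference, from the 300 bp window around the peak midpoint, on the purine-rich strand with copies of the 6-base word AGAGAC in capitals. The stretch with the most copies was taken from each window, and the word was chosen after the values had been seen. The IGSF21 stretch is at chr1:18711560-18711709 (plus strand) and the GATA1 stretch at chrX:48646629-48646778 (plus strand).
IGSF21: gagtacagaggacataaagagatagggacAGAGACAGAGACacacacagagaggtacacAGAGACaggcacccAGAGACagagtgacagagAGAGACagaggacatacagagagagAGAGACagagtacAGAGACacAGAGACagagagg
GATA1: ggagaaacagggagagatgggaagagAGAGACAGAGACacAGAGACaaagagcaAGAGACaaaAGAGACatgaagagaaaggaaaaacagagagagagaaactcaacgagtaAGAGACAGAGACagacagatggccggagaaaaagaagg

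The second set holds best-ranked peaks with a perfect tandem repeat of the commonest purine units and of ATGG. Among purine-skewed peaks, ATGG was more frequent than among purine-skewed windows of the reference in RT112 and less frequent in UM-UC-3. The longest perfect tract of the 300 bp window is in capitals. The DIPK2A stretch is at chr3:144556434-144556583 (minus strand), the KLK2 stretch at chr19:51390504-51390653 (plus strand), the STARD13 stretch at chr13:33702001-33702150 (plus strand), the SYCN stretch at chr19:39712190-39712339 (minus strand), the TOP1 stretch at chr20:39493287-39493436 (plus strand) and the TBX5 stretch at chr12:114670242-114670391 (minus strand).
DIPK2A: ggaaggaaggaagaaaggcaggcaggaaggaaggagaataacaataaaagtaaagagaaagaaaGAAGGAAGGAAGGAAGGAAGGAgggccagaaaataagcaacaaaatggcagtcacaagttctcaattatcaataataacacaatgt
KLK2: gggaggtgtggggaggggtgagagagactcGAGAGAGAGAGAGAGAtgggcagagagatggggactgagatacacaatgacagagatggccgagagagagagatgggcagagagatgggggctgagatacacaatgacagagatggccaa
STARD13: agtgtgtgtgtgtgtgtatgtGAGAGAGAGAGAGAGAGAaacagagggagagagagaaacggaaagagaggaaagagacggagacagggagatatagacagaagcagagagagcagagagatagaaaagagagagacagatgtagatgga
SYCN: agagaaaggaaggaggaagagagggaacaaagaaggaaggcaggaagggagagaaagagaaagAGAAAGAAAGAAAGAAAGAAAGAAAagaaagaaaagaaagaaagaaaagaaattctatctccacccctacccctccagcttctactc
TOP1: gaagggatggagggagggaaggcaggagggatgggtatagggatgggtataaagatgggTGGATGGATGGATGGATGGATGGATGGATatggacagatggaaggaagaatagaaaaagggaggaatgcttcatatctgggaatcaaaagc
TBX5: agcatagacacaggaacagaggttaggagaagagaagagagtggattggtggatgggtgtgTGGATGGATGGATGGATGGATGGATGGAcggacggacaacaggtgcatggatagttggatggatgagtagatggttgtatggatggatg

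Peaks fell in purine-skewed DNA more often than reference windows did, in all 4 libraries. The purine-skewed share was 4.96 and 6.10% of peaks for the RT112 pair and 4.49 and 4.502% in the UM-UC-3 replicates, against 2.73% (258427 of 9451953) of the non-overlapping 300 bp windows without unknown bases on chromosomes 1 to 22 and X. The difference was 2.28 ± 0.759 percentage points (SD, n = 4 libraries) and was positive in 4 of 4 libraries, with p = 0.13 in an exact two-sided sign-flip permutation test, the smallest p that 4 libraries allow. Replicates of a cell line share their genome, so the 4 differences were not independent.

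The RT112 libraries held 5.53 ± 0.812% purine-skewed peaks and the UM-UC-3 libraries 4.496 ± 0.00943% (mean ± SD, n = 2 each). The difference of UM-UC-3 minus RT112 was −1.03 points, with p = 0.33 in an exact two-sided permutation test, the smallest that 2 libraries against 2 allow. It was −0.459 points without RT112 replicate 2 and −1.61 points without RT112 replicate 1, so its size rested on which RT112 library was kept. RT112 replicate 2 had the fewest peaks and the highest purine-skewed share.

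The excess over the reference grew with the purine share and then fell. Among windows with 50 to 55% purine on the richer strand, the share of peaks was 0.871, 0.832, 0.869 and 0.860 times that of reference windows, in the order RT112 replicates 1 and 2 and UM-UC-3 replicates 1 and 2. It was 1.77, 2.08, 1.65 and 1.65 times at 65 to 70% purine, where 3832, 2826, 4072 and 4250 of the purine-skewed peaks lay. At 80 to 90% the ratios were 2.35, 3.82, 1.93 and 1.84.

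At 90 to 100% purine, which is nearly pure purine tract, the ratios dropped to 1.19, 1.52, 0.813 and 1.18, on 40, 32, 31 and 47 peaks. Relative to these reference windows, peaks were thus most over-represented in DNA that was mostly, but not entirely, purine on its richer strand. The reference windows were not filtered for how uniquely reads can be mapped to them. The part of this in the drop, and in the tract and run comparisons below, was not tested. From 65 to 80% the ratio rose in both RT112 libraries and did not rise in UM-UC-3 (1.52 and 1.56 at 75 to 80%, against 2.17 and 3.08 in RT112).

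**Figure D1:**
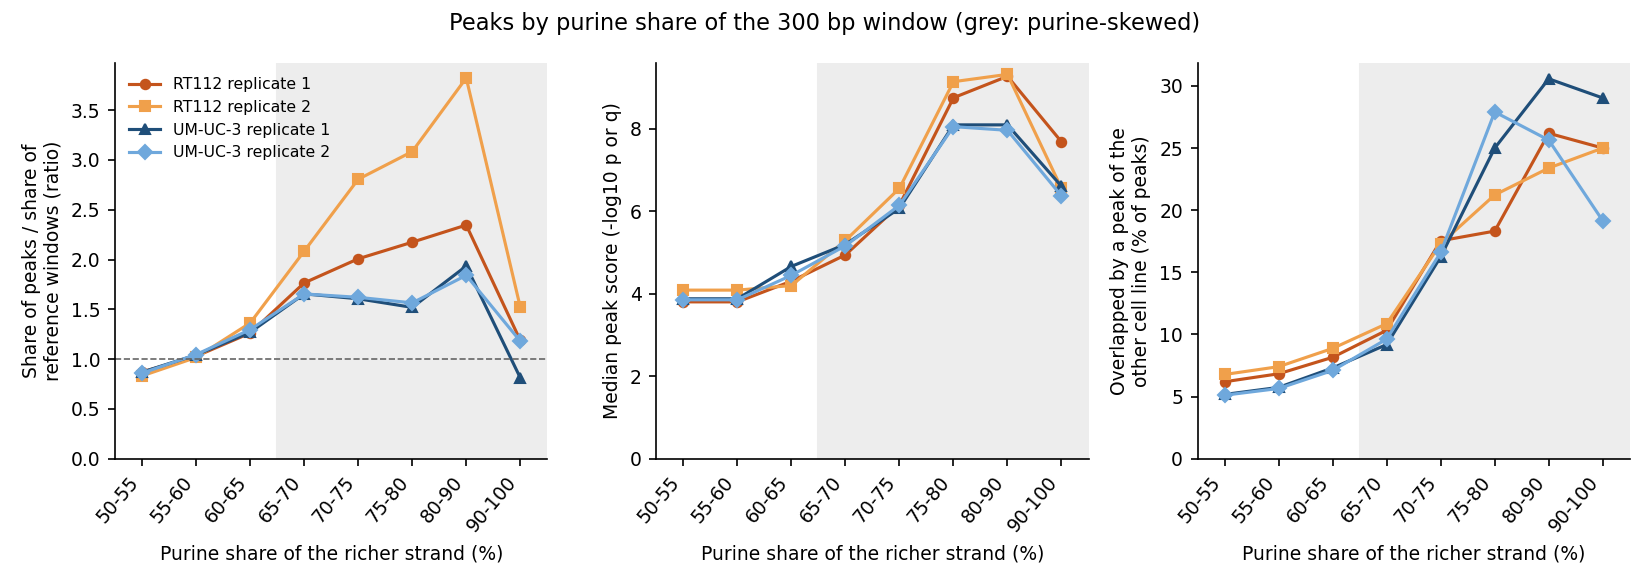
Peaks of each library by the purine share of the richer strand of their 300 bp window (x axis, percent). Left, share of peaks divided by share of reference windows in that class. Middle, median score (−log10 p or q). Right, percent of peaks overlapped by a peak of the other cell line. Grey marks the purine-skewed classes. All 3 measures were higher at 80 to 90% than at 50 to 55% in every library, and the ratio fell again at 90 to 100%.

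The excess was present in all 5 GC classes, and was smallest where GC was high. In windows of under 35% GC, purine-skewed peaks were 2.18, 2.92, 1.98 and 1.99 times as frequent as purine-skewed reference windows. In windows of 50% GC or more the ratios were 1.34, 1.65, 1.08 and 1.05. The UM-UC-3 libraries were therefore close to the reference in GC-rich DNA.

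Chromosome 19 held the highest share of purine-skewed peaks in all 4 libraries, 8.10, 11.3, 6.80 and 6.94% of its peaks, on 118, 106, 119 and 129 peaks. Its reference windows were also more often skewed, at 3.88%, so that the ratios of 2.09, 2.92, 1.75 and 1.79 were nearer to those of the whole genome. On the X chromosome, the ratios were 1.75, 2.17, 1.51 and 1.59.

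Purine-skewed peaks scored higher than other peaks. Their median score was 4.94 against 3.80 in RT112 replicate 1, 5.29 against 4.09 in RT112 replicate 2, 5.19 against 3.88 in UM-UC-3 replicate 1 and 5.16 against 3.85 in UM-UC-3 replicate 2. The mean difference was 1.24 ± 0.0865 (SD, n = 4 libraries, positive in 4 of 4, exact sign-flip permutation p = 0.13). The quartiles of purine-skewed and other peaks overlapped in every library, for example 3.73 to 8.75 against 2.76 to 6.15 in RT112 replicate 1.

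The difference widened at the top of the lists. A score of 10 or more was reached by 20.5, 19.5, 17.1 and 18.6% of purine-skewed peaks and by 9.54, 8.05, 8.78 and 8.73% of the others. Of the 100 best-scored peaks, 34 and 40 for the RT112 pair, against 25 and 20 for UM-UC-3, were purine-skewed, against 4.49 to 6.10% of all peaks. The single best score of RT112 replicate 1 (126.8), RT112 replicate 2 (115.1) and UM-UC-3 replicate 1 (91.3) belonged to a purine-skewed peak, whereas the best of UM-UC-3 replicate 2 did not (79.7 against 83.6 among other peaks).

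The threshold of 65% did not mark a step. Peaks just inside it (65 to 66% purine) had median scores of 4.94, 5.29, 5.19 and 5.16, and those just outside (64 to 65%) had 4.94, 5.22, 5.19 and 5.16. An overlap with the other cell line was found for 9.49, 10.1, 8.64 and 9.57% just inside and for 8.86, 9.29, 7.89 and 7.98% just outside.

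The base composition of the purine-skewed peaks differed between the cell lines, as did that of the other peaks. Median A on the purine-rich strand was 40.3% in both RT112 libraries and 42.3% in both UM-UC-3 libraries, and median G was 28.7 and 29.0% against 26.0 and 26.0%. Median GC content was 41.3% for RT112 and 38.7% in UM-UC-3. The other peaks had 42.3 and 42.7% GC for RT112 and 40% in both UM-UC-3 libraries, a shift in the same direction.

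**Figure D2:**
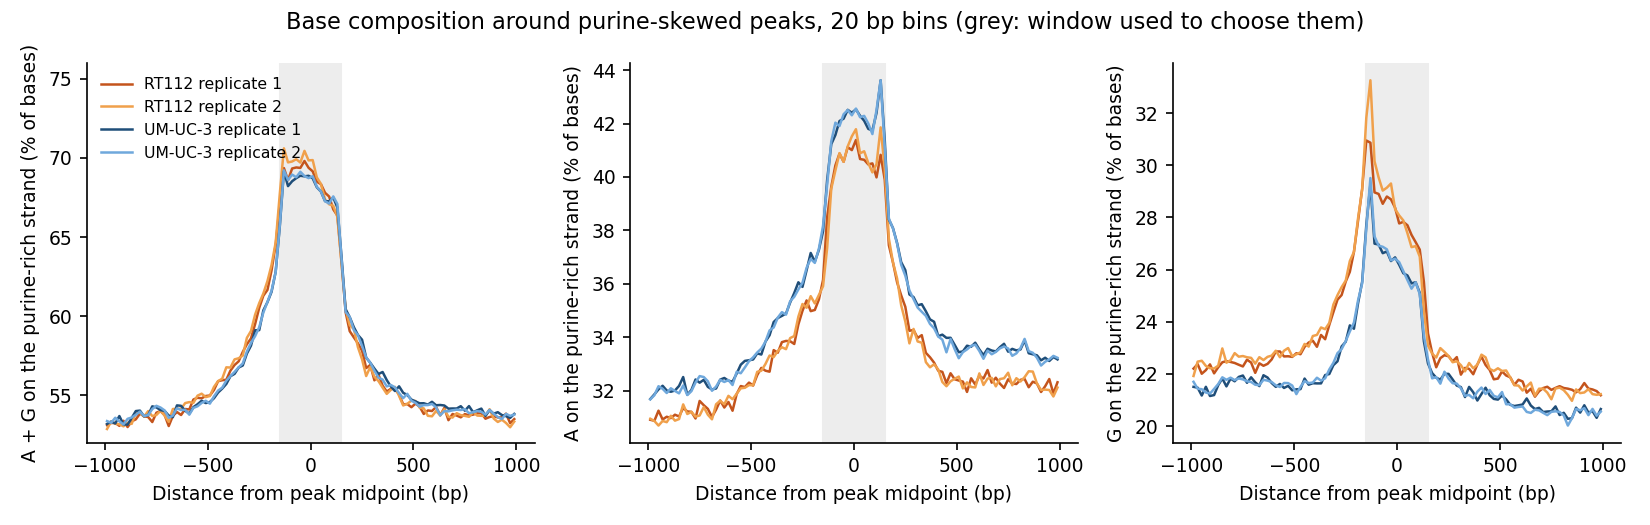
Mean A plus G, A and G (percent of bases on the purine-rich strand, y axes) in 20 bp bins within 1000 bp of the midpoints of purine-skewed peaks (x axis), 1 line per library. Grey is the 300 bp window that chose the peaks, so the rise inside it follows from the rule. The purine share 310 bp upstream of the midpoint was still 58.2% for RT112 replicate 1 and 57.8% for UM-UC-3 replicate 2, and it was 53.1 and 53.4% at 990 bp. G was highest 130 to 150 bp upstream of the midpoint, and A 130 bp downstream in all libraries but RT112 replicate 1 (10 bp).

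Only a minority of purine-skewed peaks held a perfect tandem repeat. A repeat was counted when a unit of 1 to 6 bases ran without error for at least 15 bases and 3 copies. It was present in 17.1, 17.5, 16.02 and 16.3% of purine-skewed peaks (815, 644, 786 and 838) and in 7.21, 7.74, 8.08 and 8.24% of the other peaks, a difference of 8.91 ± 1.04 points (SD, n = 4 libraries, positive in 4 of 4, exact sign-flip permutation p = 0.13). Repeats were searched in the same window whose composition chose the peaks. The difference from other peaks thus describes the chosen peaks, and its p-value is no evidence. Among purine-skewed reference windows, however, 23.1% held a repeat, more than in any library.

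The deficit relative to the reference lay in long tracts. Counted by the longest perfect tract whatever its number of copies, tracts of 15 to 23 bases were found in 16.5, 17.6, 15.02 and 14.9% of purine-skewed peaks and in 16.5% of skewed reference windows. Tracts of 40 bases or more were found in 1.32, 1.36, 1.12 and 1.19% (63, 50, 55 and 61 peaks), against 3.92% of skewed reference windows. The longest had 98 bases for RT112 and 96 in UM-UC-3.

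Units of 4 bases were the most frequent, in 7.16, 7.78, 6.67 and 6.89% of purine-skewed peaks, and in 1.74, 1.84, 1.73 and 1.82% of other peaks. AAGG, the unit of the GGAA repeats, was found in 103, 95, 84 and 109 peaks, or 0.728, 0.872, 0.578 and 0.716 times its share of skewed reference windows. Its peaks had median scores of 7.43, 6.56, 5.43 and 6.14, each above the median of all purine-skewed peaks of that library (4.94, 5.29, 5.19 and 5.16). Their median purine share was 72.0, 73.3, 72.5 and 71.7%. All peaks of 70 to 75% purine had median scores of 6.15, 6.56, 6.07 and 6.14. The AAGG peaks were above that class only in RT112 replicate 1.

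AG repeats were found in 95, 75, 76 and 87 peaks. They were 1.24, 1.27, 0.967 and 1.06 times as frequent as among skewed reference windows, and had median scores of 6.15, 6.56, 6.61 and 6.57. Runs of A were found in 108, 65, 121 and 121 peaks, at 0.495, 0.387, 0.540 and 0.516 times the reference share, with median scores of 4.15, 4.09, 5.19 and 5.16. A runs were further below the reference than AAGG or AG repeats in every library.

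ATGG differed between the cell lines. Its tracts were in 54 and 47 peaks of the RT112 pair and in 28 and 29 of the UM-UC-3 libraries. That is 1.32 and 1.49 against 0.665 and 0.658 times its share of skewed reference windows. As a share of all peaks against all reference windows, these peaks were 2.39 and 3.33 times as frequent for RT112. For UM-UC-3 that ratio was 1.09 and 1.08. The difference between the cell lines was singled out after the values were seen and was not tested. AATGG, the unit of human satellite DNA near centromeres, was in 21, 18, 19 and 22 peaks, of which 95.2, 94.4, 94.7 and 95.5% lay within 500 kb of an assembly gap of at least 50 kb.

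The share of purine-skewed peaks with any tandem repeat was 17.3 ± 0.326% for RT112 and 16.2 ± 0.206% in UM-UC-3 (mean ± SD, n = 2 each). The difference of UM-UC-3 minus RT112, −1.12 points (exact permutation p = 0.33, the smallest possible), changed sign when the purine threshold was set to 60% or 70% or the tract to 24 bases. No order of the cell lines follows from it.

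**Figure D3:**
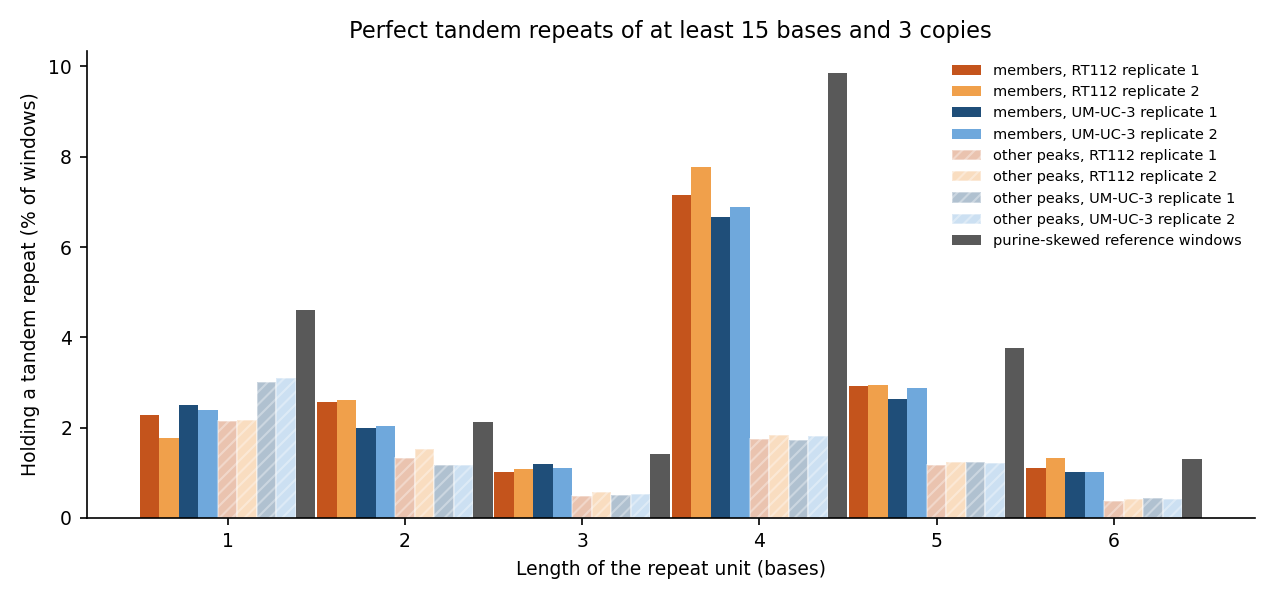
Percent of 300 bp windows (y axis) whose longest perfect tandem repeat had a unit of 1 to 6 bases (x axis), for purine-skewed peaks (labelled members, solid bars) and other peaks (hatched) of each library and for purine-skewed reference windows (dark grey). Units of 4 bases led among purine-skewed peaks with 6.67 to 7.78%, below the 9.86% of the reference windows and above the 1.73 to 1.84% of other peaks.

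The words that set purine-skewed peaks apart from reference DNA of the same purine class were not pure purine. All words of 6 bases were counted on the purine-rich strand, separately for windows of 65 to 70, 70 to 80 and 80 to 100% purine, and their mean number per peak window was divided by that per reference window of the same class, for words with at least 0.05 copies per reference window. At 80 to 100% purine, AGAGAC was 4.32, 4.52, 3.63 and 4.07 times and CAGAGA 3.86, 4.11, 3.47 and 3.85 times as frequent as in the reference. The 10 words with the highest ratios in that class all held a C, and overlapping words such as GAGACA (4.17, 4.31, 3.43 and 3.88 times) are shifts of the same pattern. The purine share still differed inside that class. At 80 to 90% lay 168, 171, 157 and 156 peaks, and at 90 to 100% lay 40, 32, 31 and 47. The reference windows there numbered 7020 and 3298. The part of this in the word ratios was not tested.

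Words rich in G were depleted in the same class. GAGGGG reached 0.220, 0.234, 0.311 and 0.283 times the reference, and GGGGGG 0.217, 0.198, 0.267 and 0.260 times. AGACAC was above AGAGAC in that class, at 4.48, 5.23, 4.27 and 4.80 times, but was rarer in the reference (0.116 against 0.767 copies per window). At 70 to 80% purine, AGAGAC reached 2.59, 2.84, 2.03 and 2.19 times and AGACAC 2.64, 2.94, 1.77 and 1.84 times. At 65 to 70% the 10 leading words reached at most 1.36 times the reference, and GC-rich words were lowest, such as GGGCGG at 0.294, 0.291, 0.291 and 0.328 times.

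Peaks with at least 3 copies of AGAGAC on the purine-rich strand were then counted. At 80 to 100% purine they were 31.2, 31.0, 26.6 and 29.1% of the purine-skewed peaks (65, 63, 50 and 59) and 6.83% of the reference windows. At 70 to 80% they were 13.2, 14.5, 9.75 and 9.65% against 3.59%, and at 65 to 70% they were 0.809, 1.13, 0.565 and 0.612% against 0.581%. At 65 to 70% these shares were 1.39 and 1.95 times the reference for RT112, against 0.973 and 1.05 times for UM-UC-3. With the word counted on whichever strand held more copies, 0.152% of all reference windows and 0.175, 0.214, 0.143 and 0.172% of the other peaks held 3 copies.

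Uninterrupted purine runs moved the other way. A run of 30 purines or more was found in 62.5, 59.1, 61.2 and 61.6% of the peaks of 80 to 100% purine, against 82.8% of reference windows of that class. At 70 to 80% the shares were 31.9, 29.4, 29.6 and 32.3% against 43.2%, and at 65 to 70% they were 6.97, 7.26, 7.24 and 7.62% against 10.5%. In all 3 classes and all 4 libraries the peaks were below the reference. The uneven purine share inside the class of 80 to 100% also enters these run shares, and its part was not tested. The word GGAAGGAA, a pair of ETS-type core motifs, was on either strand of 11.95, 13.5, 10.9 and 11.1% of purine-skewed peaks. It was in 12.2% of skewed reference windows and 2.82% of all reference windows, so the pooled peaks were near other skewed DNA. Within classes they were not. At 80 to 100% purine the shares were 42.8, 43.3, 44.7 and 42.9% against 58.2%. At 70 to 80% they were 22.3, 23.3, 20.7 and 21.3% against 27.0%. At 65 to 70% they were slightly above, at 8.30, 9.06, 7.81 and 7.91% against 7.57%.

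**Figure D4:**
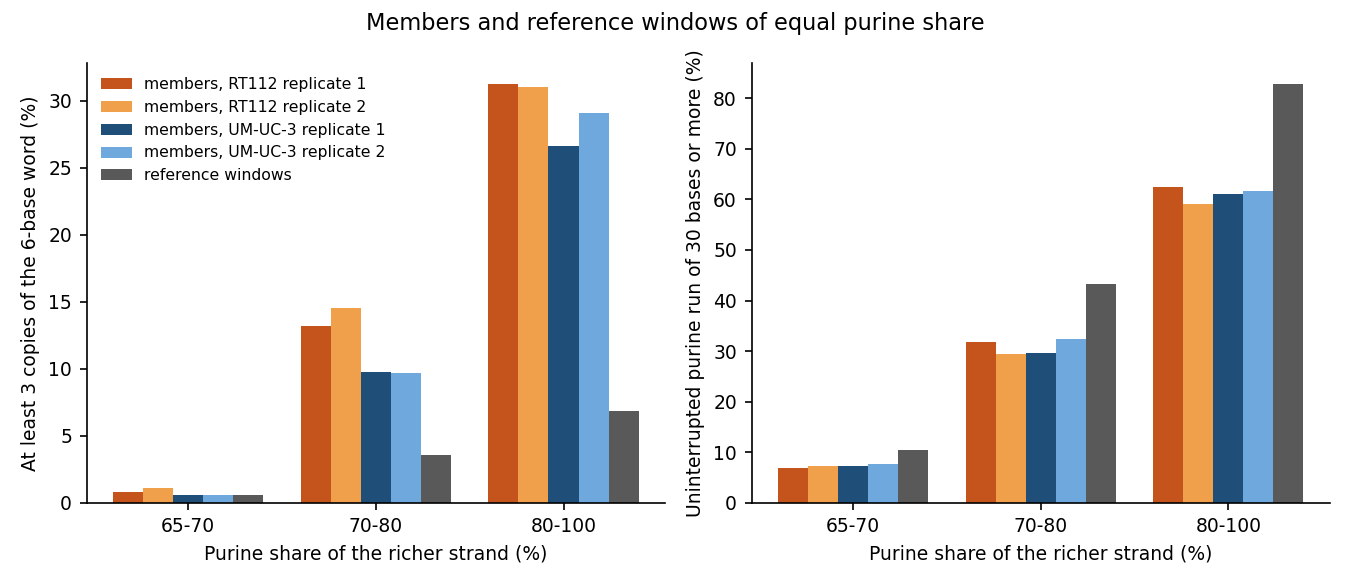
Percent of purine-skewed peaks of each library (labelled members, coloured bars) and of reference windows (dark grey) with at least 3 copies of the 6-base word AGAGAC (left) and with an uninterrupted purine run of at least 30 bases (right), by purine share of the richer strand (x axis). At 80 to 100% purine the peaks had 26.6 to 31.2% with the word against 6.83%, and 59.1 to 62.5% with the run against 82.8%.

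Peaks with 3 or more copies of AGAGAC scored higher than the other purine-skewed peaks. There were 193, 189, 136 and 151 of them, with median scores of 8.75, 9.50, 9.21 and 8.29, against 4.94, 5.29, 5.19 and 5.16 for purine-skewed peaks with fewer copies. Their median purine share was also higher, at 76.7 to 77.0% against 66.7 to 67.0%, so part of this comparison is one of purine share. Within the peaks of 80 to 100% purine, the medians were 10.9, 10.8, 10.2 and 9.60 with the word and 8.42, 7.90, 6.61 and 6.57 with fewer copies.

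Among purine-skewed peaks, location and sharing also differed with the word. A promoter was overlapped by 24.9, 24.3, 30.9 and 29.1% of the peaks with 3 copies, against 14.3, 14.9, 13.4 and 13.6% of the other purine-skewed peaks. An overlap with the other cell line was found for 22.3, 23.8, 30.9 and 28.5% against 11.7, 12.3, 10.6 and 10.99%. Within the peaks of 80 to 100% purine the gap was narrower in all libraries but RT112 replicate 2, at 29.2, 33.3, 32 and 25.4% with the word against 24.5, 19.3, 29.7 and 23.6% with fewer copies. Chromosome 19 held 30, 34, 27 and 28 of the 193, 189, 136 and 151 peaks with at least 3 copies. Of all 4778, 3676, 4906 and 5137 purine-skewed peaks it held 118, 106, 119 and 129, a smaller share in every library. Within 500 kb of an assembly gap lay 7.25, 6.88, 8.09 and 8.61% of the peaks with 3 copies. Among the other purine-skewed peaks these shares were 4.84, 5.51, 4.74 and 4.47%. The parts of chromosome 19 and of assembly gaps in the promoter and sharing differences were not tested. The word was chosen after the values were seen, so none of these differences was tested.

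Purine-skewed peaks were found again more often than other peaks, in the replicate and in the other cell line. An overlap of at least 1 bp with a peak of the other replicate was found for 50.6, 65.97, 79.05 and 76.4% of purine-skewed and 37.6, 61.0, 74.7 and 71.5% of other peaks. The mean difference was 6.82 ± 4.16 points (SD, n = 4 libraries, positive in 4 of 4, exact sign-flip permutation p = 0.13), and 0.535 points among peaks with a score of at least 10. RT112 replicate 1 contributed the widest gap, 13.04 points, and the other three libraries 4.38 to 4.97 points.

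An overlap with a peak of the other cell line was found for 12.2, 12.9, 11.2 and 11.5% of purine-skewed peaks (581, 474, 550 and 591), against 6.76, 7.39, 5.74 and 5.65% of other peaks. The difference was 5.56 ± 0.202 points (SD, n = 4 libraries, positive in 4 of 4, exact sign-flip permutation p = 0.13), and the 4 libraries barely differed in it. Because the libraries of both lines enter both sides of an overlap, the 4 values share peaks. Of the purine-skewed peaks with such an overlap, 62.7, 67.1, 63.8 and 64.1% met a peak that was itself purine-skewed. The corresponding share between replicates was 86.4, 86.3, 91.6 and 90.5%.

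The gap between the cell lines was also seen at equal score. Among peaks with scores of 2 to 4, 7.41, 8.19, 8.29 and 8.05% of purine-skewed and 5.31, 5.67, 4.36 and 4.30% of other peaks overlapped the other line. At scores of 20 or more the shares were 29.1, 31.6, 28.2 and 25.4% against 19.7, 19.1, 14.9 and 13.6%. The purine-skewed share was higher in each of the 5 score classes of each library. Between replicates, by contrast, the order varied with the score. At scores of 20 or more the shares were 97.8, 92.3, 98.3 and 95.4% against 96.4, 93.3, 97.9 and 97.4%, in both directions. At scores of 6 to 10 they were 63.0, 74.8, 86.9 and 81.8% against 55.4, 73.7, 87.1 and 83.3%, again in both directions. At scores of 2 to 4 purine-skewed peaks were above in every library, at 27.7, 49.8, 65.4 and 64.7% against 21.8, 48.4, 64.2 and 61.9%.

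**Figure D5:**
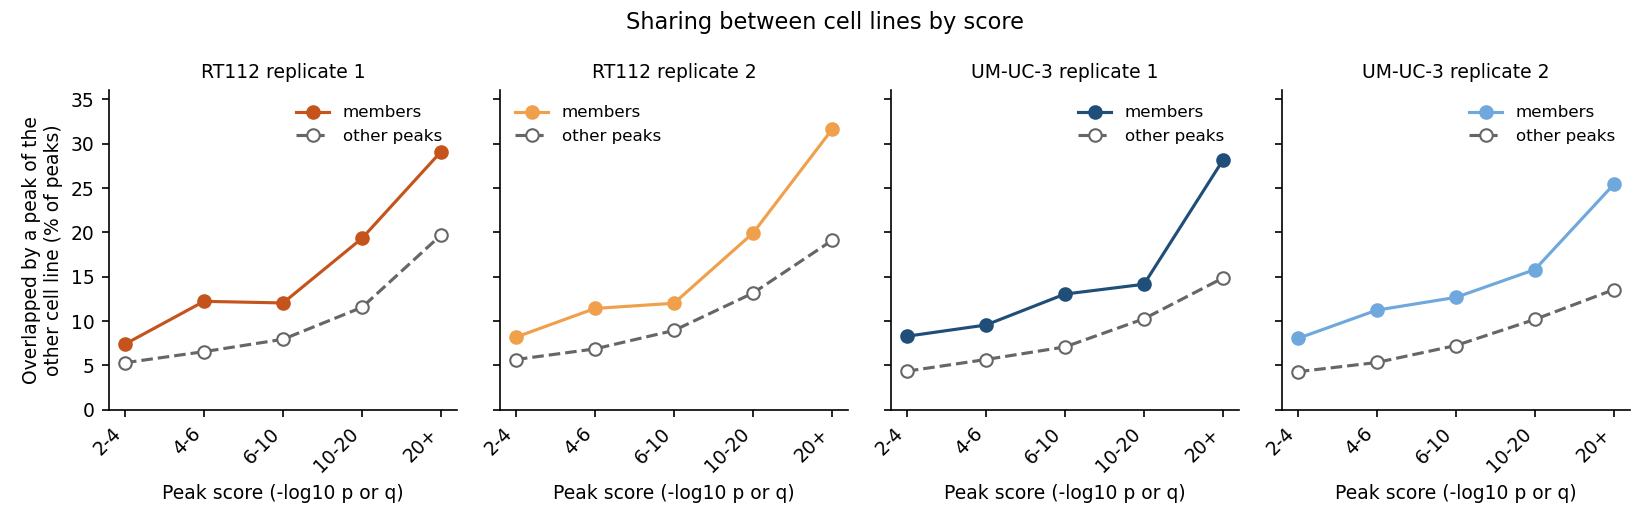
Percent of peaks overlapped by a peak of the other cell line (y axis) in 5 score classes (x axis, −log10 p or q), for purine-skewed peaks (labelled members, filled, solid) and other peaks (open, dashed), 1 panel per library. In all classes and libraries the purine-skewed peaks lay above the others, with 25.4 to 31.6% against 13.6 to 19.7% at scores of 20 or more.

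Peaks found in all 4 libraries were enriched in skewed DNA. Of the peaks with an overlap in every other library, 11.1, 11.8, 10.8 and 10.9% were purine-skewed (233 of 2090, 240 of 2035, 220 of 2044 and 224 of 2049). This compares with 3.81, 5.22, 3.57 and 3.53% of the peaks seen in a single library. Loci with a purine-skewed peak in all 4 libraries numbered 141, of which 24 (17.0%) held a tandem repeat. AAGG and AG were the commonest units there, with 5 loci each, and AAAAG followed with 3.

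By location, purine-skewed peaks were slightly rarer at promoters and exons and slightly commoner in introns and intergenic DNA. Each peak took the first of these classes that applied, in the order promoter (within 3 kb of a transcript start of any gene), UTR (5′ before 3′), remaining exon, intron, 3 kb past a gene end and distal intergenic. The promoter difference from other peaks was −0.961, −0.297, −1.94 and −1.84 points. The mean differences were −1.26 ± 0.776 points for promoters, −0.823 ± 0.0690 for other exons, −0.601 ± 0.0907 for 3′ UTRs, 2.00 ± 0.326 for introns and 0.812 ± 0.437 for distal intergenic DNA (SD, n = 4 libraries, same sign in 4 of 4). Each had p = 0.13 in an exact sign-flip permutation test, and 0.146 after Benjamini-Hochberg adjustment over 7 locations. None passed a threshold of 0.05, which this design cannot reach. With a purine threshold of 70%, the promoter difference turned to 4.14 points and the intron difference to −4.05 points, the opposite direction.

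The purine-rich strand had no preference for the sense strand beyond that of the reference. Among purine-skewed peaks inside protein-coding genes of a single direction, the purine-rich strand was the sense strand in 39.7 ± 1.93% for RT112 and 39.6 ± 1.16% in UM-UC-3 (mean ± SD, n = 2 each). Purine-skewed reference windows inside such genes gave 39.5%. The difference was 0.115 ± 1.30 points (SD, n = 4 libraries, exact sign-flip permutation p = 0.875), positive in 2 libraries and negative in 2. In the reference as in the peaks, the template strand was thus more often the purine-rich strand.

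The best-ranked purine-skewed peak of RT112 lay 125 kb from TPTE, a testis-expressed membrane phosphatase homologue, within 3 kb of a transcript start of a gene that is not protein-coding, and within 500 kb of an assembly gap. It scored 126.8 and 115.1 for RT112 and 15.5 and 16.7 in UM-UC-3, so it was found in all 4 libraries. Its window was 82.7% purine with no perfect tandem repeat.

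The next peak lay inside GATA1, the master transcription factor of red cell and megakaryocyte development, 1713 bp from its start (chrX:48646528-48646793). It scored 95.3 and 66.1 for RT112 and 21.98 in UM-UC-3 replicate 2, and no peak overlapped it in UM-UC-3 replicate 1. A peak 6.42 kb from IGSF21, an immunoglobulin superfamily gene of synapses (chr1:18711397-18711771), scored 62.7 and 79.0 in RT112 and had no overlap in UM-UC-3. Other leading peaks of RT112 were in GRIPAP1 (71.0 and 51.0) and in SYP (57.2 and 49.1), a gene of synaptic vesicles, both within 500 kb of an assembly gap. Of these 8 best-ranked peaks of RT112, 5 held at least 3 copies of AGAGAC, a word chosen after the values were seen. Of the 100 best-scored purine-skewed peaks of each RT112 library, 26 and 24 held them. The share over all purine-skewed peaks was 4.04 and 5.14%.

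In UM-UC-3 the best-ranked purine-skewed peak lay 121 kb from TBX5, a T-box transcription factor of heart and forelimb development (chr12:114670118-114670587). It scored 75.3 and 79.7 in UM-UC-3 and 24.4 and 27.6 in RT112, and carried an ATGG tract of 28 bases. A peak 142 kb from RBM19, which encodes a ribosome biogenesis factor, was 89.0% purine and scored 91.3 and 74.4 in UM-UC-3, with none in RT112.

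STARD13 held a peak with an AG tract of 18 bases (chr13:33701999-33702303) that scored 66.7 and 64.3 in UM-UC-3 only. A peak in EPHA4, an ephrin receptor gene (chr2:222435487-222435832), scored 66.97 and 54.96 in UM-UC-3 and 22.6 and 10.8 in RT112. In IGF1, which encodes insulin-like growth factor 1, the scores were 64.1 and 61.6 in UM-UC-3 and 10.1 and 9.32 in RT112. Of the 8 best-ranked peaks of UM-UC-3, 2 held at least 3 copies of AGAGAC. So did 17 and 15 of the 100 best-scored purine-skewed peaks of each UM-UC-3 library, and 2.77 and 2.94% of all purine-skewed peaks.

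Some of the best-ranked loci were purine-skewed in all 4 libraries. A peak 0.644 kb from EMC10, a subunit gene of the ER membrane protein complex, scored 41.4 and 41.6 for RT112 and 28.1 and 27.2 in UM-UC-3, and was 84.7% purine. One inside CYP2B6, a cytochrome P450 gene (chr19:41520744-41521299), scored 40.8 and 24.02 for RT112 and 33.6 and 37.6 in UM-UC-3. POU2F2, the gene of the B cell factor Oct-2, held one at chr19:42653573-42654006 with scores of 33.8 and 35.2 for RT112 and 23.8 and 34.4 in UM-UC-3. EMC10 and POU2F2 ranked higher among the peaks of RT112 (84 and 36, and 183 and 84) than among those of UM-UC-3 (425.5 and 569, and 748 and 215). The AAGG peak in CEP128, a centrosomal protein gene, scored 58.6 and 41.0 for RT112. The UM-UC-3 peaks that overlapped it scored 23.8 and 13.6 and were not purine-skewed, at 58.3 and 60.7% purine.

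Few peaks, purine-skewed or other, were close to a gene start. Within 1 kb of the start of a protein-coding gene there were 25, 19, 27 and 30, or 0.523, 0.517, 0.550 and 0.584%, against 0.479, 0.483, 0.496 and 0.502% of other peaks. Of those found in both RT112 replicates, the best ranked were at OR4D1, an olfactory receptor gene (37.02 and 29.5), CLMP, an adhesion molecule gene (21.6 and 24.5), and FOXS1, a forkhead transcription factor gene (16.7 and 18.9). In UM-UC-3 they were at TRIM31, a ubiquitin ligase gene (23.8 and 37.6), and ASB2, which encodes a substrate adaptor of cullin ubiquitin ligases (22.7 and 22.6). The ASB2 peak was also found in RT112, with scores of 6.68 and 10.8.

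Protein-coding genes with a purine-skewed peak in the gene or within 3 kb numbered 1758, 1439, 1831 and 1886 in the 4 libraries. In both replicates of RT112 there were 986 of 20163 genes (4.89%), in both of UM-UC-3 there were 1464 (7.26%), and in all 4 libraries 345 (1.71%). These genes were long, with medians of 144 to 148 kb per library against 27.2 kb over all genes. The genes with the most such peaks were MACROD2, a mono-ADP-ribosylhydrolase gene (9 and 8 such peaks for RT112, 2 and 2 for UM-UC-3), and RBFOX1, a neuronal splicing factor gene (3 and 1 in RT112, 7 and 9 in UM-UC-3). MACROD2 spans 2058 kb and RBFOX1 2474 kb. Among the 5 genes per cell line with the most such peaks, POU2F2 on chromosome 19 was the shortest, with 4, 4, 2 and 2 peaks in 110 kb. Peaks per kb were not compared over all genes.

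In the plasminogen system, 1 of 21 genes had a purine-skewed peak in both RT112 replicates (4.76%, against 4.89% of all genes), F13A1, the A subunit gene of the fibrin-crosslinking factor XIII. In UM-UC-3 there were 3 (14.3%, against 7.26%), LRP2, an endocytic receptor gene, PLAT, which encodes tPA, and SERPINB2, which encodes PAI-2. Among 12 genes known for purine tracts, 1 (8.33%) had such a peak in both RT112 replicates, BCL2, an apoptosis inhibitor gene. None had one in both UM-UC-3 replicates. Among 8 genes next to GGAA repeats in Ewing sarcoma and 30 bladder cancer genes, none had such a peak in both replicates of a line. The shares over all genes were 4.89% for RT112 and 7.26% for UM-UC-3. Single libraries held some, at the bladder cancer genes PPARG and RB1 (RT112 replicate 1) and CREBBP and STAG2 (RT112 replicate 2). Over all genes, 8.72% had such a peak in RT112 replicate 1 and 7.14% in RT112 replicate 2. These bladder cancer genes span 147, 296, 156 and 462 kb, against a median of 27.2 kb over all genes. FGF14 of the purine-tract genes had such a peak in RT112 replicate 1 only.

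Of 12 genes that the study examined by ChIP-PCR, HMGB1, a chromatin protein gene, had a purine-skewed peak in both RT112 replicates and APC, a Wnt pathway suppressor gene, in both UM-UC-3 replicates. Each was 8.33% of the 12, against 4.89% of all genes for RT112 and 7.26% for UM-UC-3. The study also compiled gene lists partly by their adjacency to these peaks, which are therefore not independent of them. Of 57 genes listed for both lines, RT112 had a purine-skewed peak in both replicates at 4 (7.02%) and UM-UC-3 at 10 (17.5%), and CACNA1C, RIMS1 and SHISA9 had one in all 4 libraries. Over all genes these shares were 4.89% for RT112, 7.26% for UM-UC-3 and 1.71% for all 4 libraries. Of 469 genes listed for RT112, 56 (11.9%) had one in both RT112 replicates and 79 (16.8%) in both of UM-UC-3, and of 434 listed for UM-UC-3 there were 39 (8.99%) and 65 (15%). The median length of all genes on these compiled lists was 33.6 to 41.9 kb, against 27.2 kb over all genes. For the 12 ChIP-PCR genes it was 64.8 kb. The named genes with such peaks were longer, at 727 kb (CACNA1C), 517 kb (RIMS1), 339 kb (SHISA9), 161 kb (HMGB1) and 139 kb (APC). The part of gene length in the counts was not tested.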

How the data were processed

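PAI-1 ChIP-seq peaks of RT112 and UM-UC-3 cells were compared, with 2 replicate libraries each. According to the study's methods and processing notes, paired reads were mapped to hg19 with Bowtie 1.1.1, duplicates were removed with Picard, and peaks were called per library with MACS2 2.1.0.20140616. The control and the threshold given to the peak caller are not given in the sources used here, although a false discovery rate limit is named for plots of bound regions. The authors deposited 1 peak list per library, whose score is a −log10 p-value or q-value. Read totals are unknown, so peak lists limit what can be said of depth.

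Sequence came from GRCh37 (the hg19 sequence) and genes from GENCODE release 44 mapped to that build. Python 3.11.15, numpy 2.4.6 and pandas 2.3.3 were used, and the repeat search and overlaps were tested on simulated data. Libraries, not peaks, were the unit of every test, with exact sign-flip permutation tests over 4 libraries (smallest p 0.13) or 2 against 2 (smallest p 0.33). Shared replicate numbers were not known to pair the cell lines. The peaks described, the gene lists and the tests were chosen with earlier results of these data known, and the 6-base word AGAGAC after its values were seen. Named peaks were, per cell line, the 8 best by mean score rank over both replicates, the 6 best within 1 kb of a gene start and the best for each of the 6 commonest repeat units, and also the 8 best loci of all 4 libraries, from which those in the text were taken. Alternatives were purine thresholds of 60 and 70%, windows of 200 and 500 bp, reciprocal overlap of 50%, tracts of at least 24 bases, the top 25% of scores, replicated peaks, peaks away from assembly gaps, all listed lines, protein-coding genes alone for location with all genes for strand, runs of a single base left out, and each library left out in turn. Those at a score of 10 or more and at a GC content of 35 to 45% were added after seeing the data. Some sequences, positions and genes are not reported here.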

Additional observations from a re-analysis of the deposited data

Results flagged for a closer look

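For the tandem repeat unit ATGG, both RT112 libraries lay above the skewed reference windows and both UM-UC-3 libraries below them. Its share of purine-skewed peaks was 1.32 and 1.49 times its share of skewed reference windows in the RT112 replicates and 0.665 and 0.658 times in the UM-UC-3 replicates. The mean ratio of UM-UC-3 minus that of RT112 was -0.742. The difference was not tested, and it was picked from many units. Units of 2 bases were split likewise, at 2.57 and 2.61% for RT112 and 1.998 and 2.02% for UM-UC-3, against 2.12% of skewed reference windows. The ATGG counts were 54 and 47 against 28 and 29 peaks, of which 10, 5, 6 and 8 were also met by a peak in the other line.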

How the results depend on the processing

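Of 220 repeated values, 19 changed direction and 11 counts changed as given here. The excess over reference windows, the score difference, both overlap differences and the excess of tandem repeats over other peaks stayed positive under every alternative run, but their size varied, at 0.501 to 5.97 points, 0.866 to 2.96 score units, 0.535 to 12.9 points between replicates, 2.74 to 13.7 points between cell lines and 2.25 to 29.4 points. The lowest came, in that order, with a purine threshold of 70%, among replicated peaks, at scores of 10 or more, with a threshold of 60% and for tracts of at least 24 bases. The excess of tandem repeats was measured in the window that chose the peaks, so its sign is only a description. At a purine threshold of 70%, the location differences became 4.14 (promoter), -4.05 (intron), 0.442 (downstream) and -0.233 points (distal intergenic). The downstream difference was 0.0820 in the 500 bp window, 0.0997 and distal intergenic -1.06 in the top 25% of scores, and downstream 0.00938 among replicated peaks. Leaving out 1 library in turn gave -0.129 to 0.0103 points for downstream, positive only without RT112 replicate 1.

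The cell-line difference in tandem repeats was 0.864 at 60%, 0.626 at 70% and 0.254 for tracts of at least 24 bases. The sense-strand difference was -1.12 at 70%, -0.0554 and -1.45 in windows of 200 and 500 bp, -1.95 in the top 25% of scores, -0.736 among replicated peaks, and -0.355 to 0.554 with 1 library left out, negative without RT112 replicate 1 (-0.355) or UM-UC-3 replicate 2 (-0.144). Genes with a purine-skewed peak in both replicates of RT112 and of UM-UC-3 numbered 3062 and 4384 at 60%, 261 and 293 at 70%, 613 and 894 with 500 bp, 498 and 611 in the top 25%, and 55 and 85 within 3 kb of a gene start, as fewer or more peaks were counted. Of the 45 distinct named peaks, 30 met the 70% threshold. With a replicate block, the cell-line differences remained -1.03 and -1.12 points, with exact permutation p = 0.5, the smallest possible. The causes of the reversals were not tested. Depth could not be assessed from peak lists, and the input libraries were not analysed here.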
